A study of Mus musculus with 4 samples.

Results

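Described here are 9 transcription factor genes of microglia, the resident macrophages of the brain: Sall1, Mef2a, Mef2c, Maf, Spi1, Irf8, Cebpb, Bhlhe40 and Hif1a. They were taken by gene symbol from the 32372 features of the deposited matrices, and all 9 passed the filter on low counts in every comparison below. Some did so only through the cell group where they are high, as stated there. The study measured single-cell RNA in 4 libraries of CD11b+/CD45+ myeloid cells. The cells came from the left hemisphere of mouse brain and were flow sorted after Percoll separation. The mice were labelled female and 4 months old. The cKO group, 2 libraries, is labelled APP/PS1:miR-155 cKO, with miR-155 deleted in microglia. The Control group, 2 libraries, is labelled APP/PS1. Both groups thus carried APP/PS1, transgenes that give mice amyloid plaques as in Alzheimer's disease. The labels name neither the Cre driver nor the deleted part of the miR-155 locus. They call the libraries biological replicates. The comparison of the groups asks how loss of this microRNA changes microglia in amyloid-bearing brain.

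A tissue macrophage keeps its identity through a small set of DNA-binding proteins that act together on enhancers. PU.1, the ETS factor encoded by Spi1, opens myeloid enhancers, and IRF8 is its partner. SALL1, a zinc finger protein, is expressed in microglia and in few other myeloid cells of the mouse. MEF2A and MEF2C, MADS-box factors, and MAF, a basic leucine zipper factor, bind the enhancers of genes expressed in resting microglia. Near amyloid plaques some microglia enter a state named MGnD, the neurodegenerative phenotype, also called disease-associated microglia, marked by Clec7a, Itgax, Lpl, Cst7 and Igf1. BHLHE40 is a basic helix-loop-helix repressor, HIF-1alpha (Hif1a) is the oxygen-regulated subunit of HIF-1, and C/EBPbeta (Cebpb) is a basic leucine zipper factor of inflammatory myeloid genes.

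miR-155 pairs with messenger RNAs through its seed, nucleotides 2 to 8. Spi1 and Cebpb are among its published targets in other immune cells. The mature miRNA (RefSeq, GRCm38.p6, chr16:84714143-84714165, + strand) is shown with its seed in capitals. Beside it stand the 4 windows of 30 bases that hold a complete seed match, AGCATTA, in the longest annotated 3′ UTR of a member (GENCODE M21, GRCm38). They are shown because the deleted microRNA could pair there. Capitals in them mark the match, with the A that follows it where there is one. The search read only the sense strand of each UTR.
mmu-miR-155-5p: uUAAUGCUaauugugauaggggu
Mef2a, chr7:67234144-67234173, - strand: aatactagcctagaaatatagAGCATTAAc
Spi1, chr2:91115416-91115445, + strand: ctcctggaccccgccggccatAGCATTAAc
Cebpb, chr2:167690345-167690374, + strand: ttgagaaccttttccgtttcgAGCATTAAa
Hif1a, chr12:73946718-73946747, + strand: caataagtgagtaattttagaAGCATTAtt
The Mef2a, Spi1 and Cebpb matches are followed by an A, and the Hif1a match is not. The other 5 members held no AGCATTA in that UTR. Of 11845 tested genes with an annotated 3′ UTR, 1147, or 9.68%, held at least 1 match. A match is a stretch of letters and no measured site.

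The deposited counts came to 41214799 and 33130800 UMIs (unique molecular identifiers, 1 per captured RNA molecule) in cKO replicates 1 and 2, and to 47574406 and 33889598 UMIs in Control replicates 1 and 2. Cells numbered 3828 and 2852 in cKO, and 4351 and 2909 in Control, and any pair of libraries shared at most 4 cell barcodes. All 12 microglia markers, P2ry12 and Tmem119 among them, were detected in every library. Control replicate 1 went against its label: Xist, transcribed from the inactive X chromosome of females, had 0.704 CPM (UMIs scaled to a common library total) there, while cKO replicates 1 and 2 had 1894 and 1819 CPM and the other Control library 1756 CPM. The run code in the deposited file names is shared by 3 libraries, and cKO replicate 2 has a different one. Mir155hg, the host transcript of miR-155, had 1 and 1 UMIs in the cKO libraries and 7 and 11 UMIs in the Control libraries. A 3′ tag outside the deleted part would not show the deletion. The summed level of the heat-shock genes Hspa1a, Hspa1b and Dnajb1 was 496 and 905 CPM in cKO, and 328 and 241 CPM in Control.

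The factors were first compared between MGnD-positive cells and all other cells of the same library. A cell was MGnD-positive with at least 3 of the 5 marker genes detected after thinning to 2000 UMIs, so that depth did not set the call. The cKO libraries held 328 (9.15%) and 121 (4.54%) such cells, and the Control libraries 524 (13.1%) and 314 (11.9%). In them Bhlhe40, Hif1a and Irf8 were higher, and Maf, Sall1, Mef2a, Cebpb and Spi1 were lower. Calls were made by edgeR on the UMI sums, blocked by library, at a Benjamini-Hochberg adjusted p below 0.05. CPM in this comparison is scaled with TMM factors, which hold the typical gene level between the sums. Of 10245 genes tested, 30.0% passed, 16.5% higher and 13.5% lower. The members' 3 higher and 5 lower calls therefore stand against a background in which many genes moved.

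Bhlhe40 had 70.4 and 51.2 CPM in the MGnD-positive cells of cKO replicates 1 and 2, and 50.1 and 54.2 CPM in those of Control replicates 1 and 2. In the other cells it had 6.62 and 4.44 CPM in cKO, and 5.85 and 5.14 CPM in Control. Every MGnD-positive sum was far above every other sum, with no overlap. Averages were 56.5 ± 9.45 CPM in MGnD-positive and 5.51 ± 0.935 CPM in other cells (SD, n = 4 libraries), a log2 fold change of 3.31 (SE 0.21) or 9.93-fold, with an edgeR adjusted p of 8.07e-26. Barcodes of at most 100 UMIs, which hold free RNA, had 4.23 to 10.6 CPM of Bhlhe40, so its level in the other cells lay within the range of free RNA. In whole libraries Sall1 and Cebpb were also close to free RNA: over all cells their CPM was 0.892 to 1.05 times (Sall1) and 1.00 to 1.23 times (Cebpb) that of these barcodes in the same library. The other 7 members were between 1.14 and 2.15 times as high in cells.

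Hif1a had 577 and 375 CPM in the MGnD-positive cells of cKO replicates 1 and 2, and 457 and 476 CPM in those of Control replicates 1 and 2. The other cells had 146 and 111 CPM in cKO, and 140 and 161 CPM in Control. The groups did not overlap, and the lowest MGnD-positive sum was more than 2 times the highest other sum. The averages of 471 ± 82.6 and 140 ± 21.3 CPM (SD, n = 4) gave a log2 fold change of 1.76 (SE 0.07), 3.38-fold, with an edgeR adjusted p of 4.12e-39.

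Maf fell the most of the members. It had 288 and 367 CPM in the MGnD-positive cells of cKO replicates 1 and 2, and 306 and 312 CPM in those of Control. In the other cells it had 757 and 711 CPM in cKO, and 760 and 695 CPM in Control. Here too the sums did not overlap, and Maf was lower in the MGnD-positive cells of all 4 libraries. Its log2 fold change was -1.24 (SE 0.06), a level 2.37-fold lower, with an edgeR adjusted p of 3.65e-33.

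Sall1 had 131 and 171 CPM in MGnD-positive cells of cKO and 198 and 157 CPM in those of Control, against 290 and 289 CPM in other cells of cKO and 311 and 282 CPM in other cells of Control. Its log2 fold change was -0.83 (SE 0.09), with an edgeR adjusted p of 1.83e-14. Mef2a averaged 428 ± 20.6 CPM in MGnD-positive and 713 ± 34.3 CPM in other cells (SD, n = 4), a log2 fold change of -0.74 (SE 0.06) with an edgeR adjusted p of 4.56e-21. Neither gene's MGnD-positive sums reached any sum of other cells. Mef2c, the relative of Mef2a, did not pass, at 1033 ± 59.0 CPM in MGnD-positive and 1041 ± 57.3 CPM in other cells (SD, n = 4). The Mef2c log2 fold change was -0.03, with a 95% interval of -0.12 to 0.06.

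Changes of the remaining 3 factors were smaller. Irf8 averaged 645 ± 78.4 CPM in MGnD-positive and 509 ± 19.0 CPM in other cells (SD, n = 4), a log2 fold change of 0.31 (SE 0.06) with an edgeR adjusted p of 4e-06, higher in 4 of 4 libraries. Cebpb averaged 173 ± 34.4 CPM in MGnD-positive and 221 ± 32.5 CPM in other cells (SD, n = 4), a log2 fold change of -0.38 (SE 0.09) with an edgeR adjusted p of 0.000231, lower in 4 of 4. Spi1 averaged 300 ± 22.1 CPM in MGnD-positive and 339 ± 25.3 CPM in other cells (SD, n = 4), with a log2 fold change of -0.18 (SE 0.07) and an edgeR adjusted p of 0.044. The Cebpb and Spi1 sums overlapped between the cell groups, while those of Irf8 did not. The Spi1 call was lost with each of the 4 libraries left out in turn, with adjusted p between 0.0552 and 0.177, and the Irf8 and Cebpb calls were lost with cells thinned to 1000 UMIs (0.26 and -0.42, edgeR adjusted p 0.0975 and 0.0746).

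The scaling decided the calls of Irf8 and Mef2c. With library totals in place of TMM factors, a choice made after seeing the data, the median log2 fold change of all genes was -0.33, against -0.04 with TMM. On that scale 989 genes were higher and 3490 lower, against 1692 and 1386 with TMM. Irf8 then had a log2 fold change of 0.02 (edgeR adjusted p 0.817) and Mef2c one of -0.32 (edgeR adjusted p 1.53e-08). The other 7 calls held on both scales. Heat-shock genes summed to 154 and 256 CPM in MGnD-positive cells of cKO and 88.7 and 63.7 CPM in those of Control, against 547, 995, 393 and 300 CPM in the other cells of the same libraries in that order. With every cell that held a UMI of those genes left out, each of the 8 calls remained (Bhlhe40 2.93, Hif1a 1.61, Maf -1.28 on the log2 scale). The 7 markers of border macrophages, the other resident brain macrophages, summed to between 7.96 and 13.7 CPM in MGnD-positive cells and between 6.29 and 10.4 CPM in other cells, and Cbr2, F13a1, Lyve1 and Cd163 were at 0 in the MGnD-positive cells of every library.

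Markers of other cell types differed between the cell groups. The 7 monocyte markers summed to between 3.18 and 6.10 CPM in MGnD-positive cells, with Ly6c2, Chil3 and Vcan at 0 in every library, against 14.3 to 44.4 CPM in other cells. The 6 neutrophil markers summed to between 0 and 1.59 CPM in MGnD-positive cells and between 0 and 196 CPM in other cells. The 4 astrocyte markers summed to between 82.1 and 108 CPM in MGnD-positive cells and between 178 and 205 CPM in other cells. With cells that held at least 2 markers of another class left out, all 8 calls remained, Cebpb at -0.38 on the log2 scale.

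**Figure D1:**
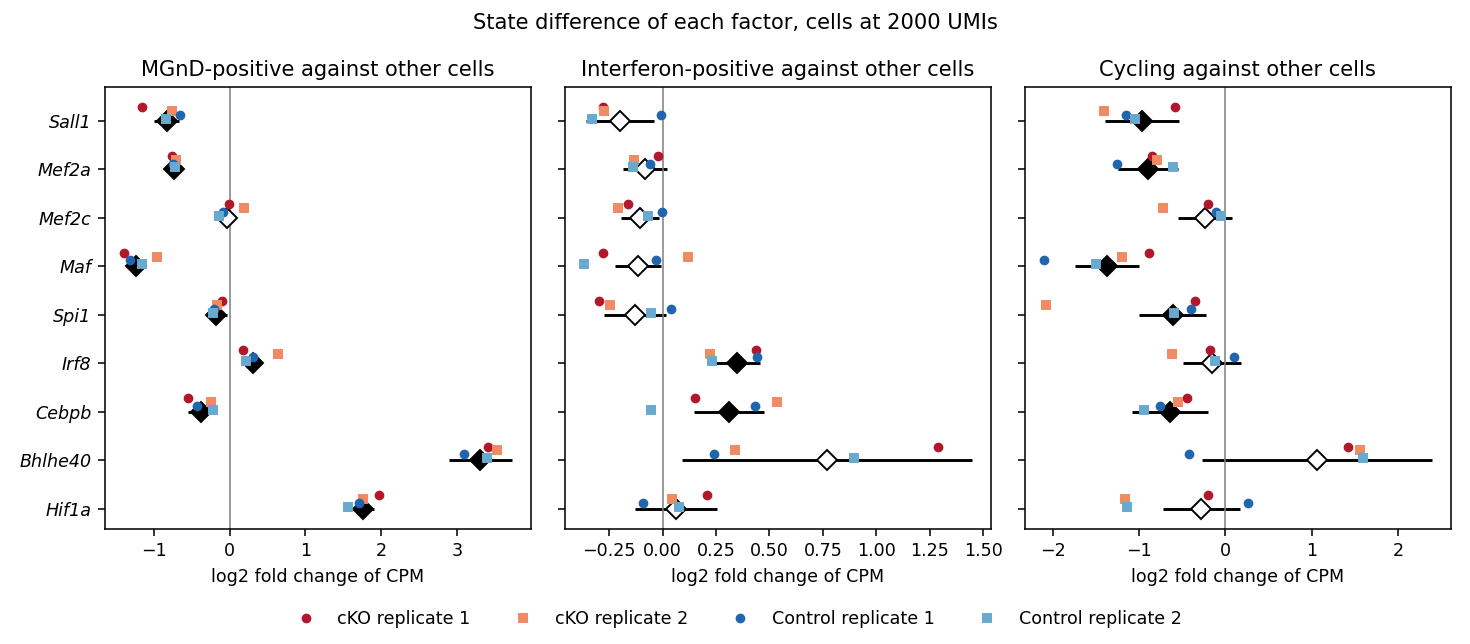
Log2 fold change of TMM-scaled CPM (x axis) for each of the 9 factors (rows) in MGnD-positive, interferon-positive and cycling cells against the other cells of the same libraries. Small symbols are single libraries, diamonds the edgeR estimate with its 95% interval, filled where the adjusted p was below 0.05. Bhlhe40 at 3.31 and Hif1a at 1.76 stand far right in the MGnD panel, where Maf lies at -1.24.

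Levels were also followed by the number of the 5 MGnD genes a cell had, as a description without a test and in CPM of library totals. Hif1a averaged 114 ± 6.55 CPM in cells with 0 such genes, 201 ± 36.6 CPM with 1, 328 ± 36.3 CPM with 2, 403 ± 69.3 CPM with 3 and 466 ± 112 CPM with 4 (SD, n = 4). All 16 of its steps in the 4 libraries went up. Maf averaged 907 ± 54.6 CPM with 0 genes, 665 ± 47.3 CPM with 1, 390 ± 50.2 CPM with 2, 302 ± 41.8 CPM with 3 and 258 ± 56.1 CPM with 4, and 15 of 16 steps went down. Sall1 went down in 15 of 16 steps as well, with 355 ± 19.2 CPM at 0 genes and 115 ± 53.4 CPM at 4. Mef2a did so too, with 857 ± 59.0 CPM at 0 genes and 331 ± 72.8 CPM at 4. Cells with a single MGnD gene thus already differed in Hif1a and Maf from cells with none by more than the spread over libraries.

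Bhlhe40 had 1.15 ± 0.430 CPM in cells with 0 genes, 10.7 ± 3.55 with 1, 31.3 ± 7.90 with 2, 51.0 ± 15.4 with 3 and 44.6 ± 30.2 with 4 (SD, n = 4). The wide spread at 4 genes includes cKO replicate 2, whose 23 such cells held no Bhlhe40 UMI. Spi1 went down in 14 of 16 steps and Mef2c in 13, over a narrower range. Irf8 went up in 10 steps and down in 6, with averages between 554 and 603 CPM.

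**Figure D2:**
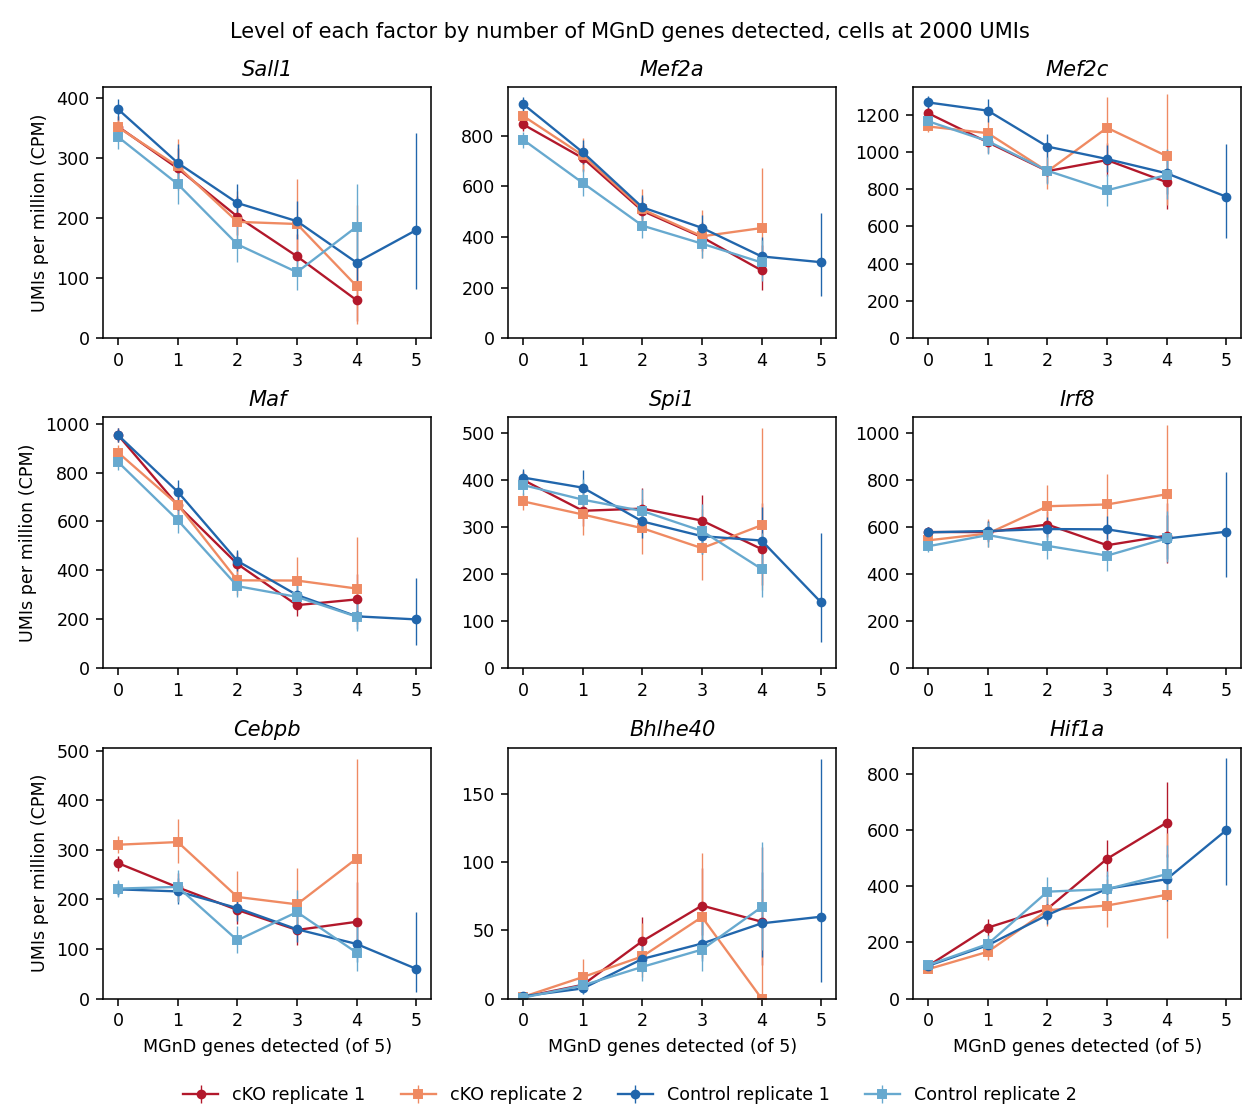
Level of each factor (y axis, CPM of library totals) by the number of the 5 MGnD genes detected (x axis) in cells thinned to 2000 UMIs, 1 line per library. Bars are 95% Poisson intervals for counting error only. Points of under 20 cells are left out. Hif1a climbs in every library, Maf, Sall1 and Mef2a decline, and Irf8 stays between 478 and 739 CPM.

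The genes whose pattern over these groups was most like each factor were taken from 1378 genes of at least 100 CPM, by Pearson correlation over 21 points that share libraries, as a description. Mef2a was most like P2ry12, the purinergic receptor of resting microglia (r = 0.98), then Tpst2 and Crybb1. Maf was most like Cx3cr1, the fractalkine receptor (r = 0.98), then Ssh2 among the genes reported here. Sall1 was closest to 2810013P06Rik, Abca9 and Fam49b, with r of at least 0.96. Hif1a was closest to Eef1a1, Grn, which encodes progranulin, and Ctsb, which encodes cathepsin B, with r = 0.99 for each. Bhlhe40 was closest to Cops9, Myl6 and Ndufa13. Irf8 had no close match, with St13 the nearest at r = 0.73 and Sh3kbp1 and Atp5g1 after it. Mef2c was nearest to Irf2bp2, Mgat4a and Dennd4a, Spi1 to Il6ra, Srsf7 and Hspa1b, and Cebpb to Ddx6, Il6ra and Picalm.

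Other transcription factors of macrophage lineage moved with the falling members in MGnD-positive cells. Of 15 in that list, 11 fell and 0 rose, with a median log2 fold change of -0.48 against -0.04 over all genes. Klf2 was 2.50-fold lower (157 ± 49.0 CPM in MGnD-positive and 410 ± 171 CPM in other cells), and Ikzf1 was 1.51-fold lower. Among 18 tested factors of activation and metabolism, 6 rose and 3 fell, with a median log2 fold change of -0.08 against -0.04 over all genes. Over all genes 16.5% were called higher and 13.5% lower, so the share of this list that fell was close to that of all genes. Srebf2, which controls sterol synthesis, rose 2.44-fold, and Nfe2l2 and Id2 rose 1.33-fold and 1.42-fold. Cebpd, a relative of Cebpb, fell 3.37-fold, and Bach1 and Tfe3 fell 1.40-fold and 1.36-fold. Among 8 tested interferon factors 1 rose and 2 fell, the latter being Irf1 (1.71-fold) and Irf2 (1.27-fold).

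The HIF-1 pathway was described by its regulators and targets. Of the 6 regulators, Egln3 and Egln1, prolyl hydroxylases that mark HIF-1alpha for destruction and are themselves HIF targets, rose 6.63-fold and 1.41-fold in MGnD-positive cells, and Hif1an, the asparagine hydroxylase, fell 1.83-fold. Of 12 tested targets 9 rose and 1 fell, with a median log2 fold change of 0.89 against -0.04 over all genes. Mif, a cytokine, averaged 606 ± 38.4 CPM in MGnD-positive and 145 ± 18.7 CPM in other cells (SD, n = 4), 4.15-fold higher. The glycolytic genes Pgk1 and Ldha rose 3.22-fold and 2.38-fold. Hk2, a hexokinase, fell 1.26-fold.

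Interferon-positive cells, with at least 3 of 12 interferon-stimulated genes, numbered 201 and 175 in cKO and 229 and 142 in Control. Of 10149 genes tested there, 4.95% passed, 4.07% higher and 0.877% lower, and with library totals 338 genes were higher and 161 lower, against 413 and 89 with TMM. Irf8 and Cebpb rose, and the other 7 members did not pass. Irf8 had 750 and 614 CPM in interferon-positive cells of cKO and 759 and 633 CPM in those of Control. The other cells had 554 and 526 CPM in cKO, and 559 and 540 CPM in Control. The groups did not overlap, and the log2 fold change of 0.35 (SE 0.06) had an edgeR adjusted p of 1.87e-07. It held with each library left out in turn, and was lost without the library block (edgeR adjusted p 0.0742). With all UMIs summed in place of thinned ones Bhlhe40 and Hif1a were also called higher (0.47 and 0.19 on the log2 scale), and Sall1, Mef2a, Mef2c and Maf lower, between -0.21 and -0.09.

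Cebpb had 263 and 397 CPM in interferon-positive cells of cKO and 265 and 201 CPM in those of Control, against 237 and 274 CPM in other cells of cKO and 196 and 209 CPM in other cells of Control. It was higher in 3 of 4 libraries, not in Control replicate 2, and the sums overlapped. Its log2 fold change of 0.31 (SE 0.08, edgeR adjusted p 0.00827) lost the call without cKO replicate 2 (0.20, adjusted p 0.401) and without Control replicate 1 (0.26, adjusted p 0.183). Hif1a, at 186 ± 40.6 CPM in interferon-positive and 177 ± 33.0 CPM in other cells (SD, n = 4), had a log2 fold change of 0.06 with a 95% interval of -0.13 to 0.25. Of 8 tested interferon factors 5 rose and 0 fell, among them Irf7 (11.8-fold) and Stat2 (5.50-fold). HIF-1 targets were called here too: 4 of 11 tested rose, Mif and Ldha among them, and 0 fell. Their median log2 fold change was 0.20 against -0.01 over all genes, of which 4.07% were called higher.

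Cells of the MGnD state alone and of the interferon state alone were then set against each other. Of 5002 genes tested, 32.3% passed, 17.1% higher and 15.2% lower in MGnD-only cells. Hif1a had 562 and 363 CPM in MGnD-only cells of cKO and 443 and 467 CPM in those of Control. In interferon-only cells it had 177 and 103 CPM in cKO, and 133 and 177 CPM in Control. The groups did not overlap (log2 fold change 1.65, SE 0.11, edgeR adjusted p 3.23e-17). Bhlhe40 was higher as well (2.26, SE 0.34, edgeR adjusted p 4.64e-07), although Control replicate 2 held no Bhlhe40 UMI in its 119 interferon-only cells. The interferon-only cells of cKO replicates 1 and 2 held 8 and 2 such UMIs, and those of Control replicate 1 held 6. Bhlhe40 passed the filter on low counts only through the MGnD-only sums, where it is high, so this call is no support by itself. Maf, Sall1, Mef2a and Cebpb were lower in MGnD-only cells, at -1.14, -0.70, -0.70 and -0.68 on the log2 scale, each called by edgeR and each kept with every library left out in turn. The Cebpb sums overlapped between the cell groups, and those of Maf, Sall1 and Mef2a did not. Irf8, Spi1 and Mef2c did not pass with TMM factors (-0.07, -0.10 and 0.05). With library totals Irf8 and Spi1 were called lower (-0.28 and -0.32) and Mef2c was at -0.16, uncalled.

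Cycling cells, with at least 3 of 12 mitotic genes, were few: 55 and 18 in cKO, and 57 and 27 in Control. Of 10111 genes tested 12.3% passed, 5.59% higher and 6.69% lower, that is 565 and 676 genes. The split moved with the scaling, to 659 and 470 with median-ratio factors and to 745 and 410 with library totals. Maf had 463 and 360 CPM in cycling cells of cKO and 196 and 275 CPM in those of Control, against 853 and 825 CPM in other cells of cKO and 841 and 778 CPM in other cells of Control. Every cycling sum was below every other sum, and the log2 fold change was -1.37 (SE 0.19, edgeR adjusted p 2.01e-11). Sall1 and Mef2a were lower too, at -0.96 (SE 0.22, edgeR adjusted p 0.000218) and -0.89 (SE 0.18, edgeR adjusted p 1.5e-05), and these 3 calls held on all 3 scalings.

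Spi1 and Cebpb passed with TMM factors in cycling cells (-0.61 and -0.64, edgeR adjusted p 0.0216 and 0.04). Neither passed with median-ratio factors (-0.48 and -0.51). The Spi1 call was also lost without cKO replicate 2 (-0.43) or Control replicate 2 (-0.63), and the Cebpb call with each library left out in turn. Bhlhe40 rested on 8 UMIs in cycling cells, and Hif1a, Irf8 and Mef2c did not pass. Of the 15 lineage factors 7 fell and 0 rose, with a median of -0.64 against -0.27 over all genes. Klf2 fell 3.46-fold and Cebpa 2.20-fold.

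Set side by side in CPM of library totals (mean ± SD, n = 4 libraries), Hif1a had 426 ± 68.9 CPM in MGnD-positive, 182 ± 34.8 in interferon-positive, 153 ± 67.5 in cycling and 153 ± 17.7 in cells of no state, and only the MGnD-positive libraries did not overlap those of another kind of cell. Bhlhe40 had 51.2 ± 8.81 CPM in MGnD-positive, 16.7 ± 8.03 in interferon-positive, 27.5 ± 13.2 in cycling and 5.67 ± 0.658 in cells of no state. Its libraries overlapped between cycling and interferon-positive cells and between no other kinds of cell. Some interferon-positive cells were also MGnD-positive, and the cycling cells held only 8 Bhlhe40 UMIs. In interferon-only cells Bhlhe40 had 10.7 ± 9.59 CPM, from 0 to 21.6, which overlapped the 4.87 to 6.44 CPM of no-state cells. Maf had 289 ± 44.3 CPM in MGnD-positive, 677 ± 138 in interferon-positive, 359 ± 144 in cycling and 818 ± 53.4 in cells of no state. Sall1 followed the same order, with 149 ± 27.2, 258 ± 41.0, 177 ± 34.2 and 329 ± 20.2 CPM in the same 4 kinds of cell. For both genes the libraries overlapped between MGnD-positive and cycling cells, and between interferon-positive and no-state cells. Cycling and interferon-positive cells overlapped as well for Sall1 and not for Maf. Irf8 was highest in interferon-positive cells, with 677 ± 80.2 CPM, and had 587 ± 102 in MGnD-positive, 574 ± 55.2 in cycling and 555 ± 23.2 in cells of no state. Its interferon-positive libraries all lay above those of no state, and every other pair of these kinds of cell overlapped.

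The question of the study, cKO against Control, was tested on all UMIs of all filtered cells of a library. None of 13607 genes passed edgeR (0%), with 987 at an unadjusted p under 0.05, while DESeq2 called 24 genes. No member passed, and the median log2 fold change of the 9 was -0.05. For 6 of the 9 the libraries of the 2 groups did not overlap, where 39.2% of all tested genes had no overlap. For 6 members, Sall1, Mef2a, Mef2c, Maf, Spi1 and Irf8, the difference was under 0.1 on the log2 scale. Their 95% intervals reached at most -0.31 (Mef2c) on the low side and 0.28 (Maf) on the high side. These intervals are normal approximations and are too narrow for so few libraries.

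Cebpb had 231 and 269 CPM in cKO, against 197 and 195 CPM in Control, a log2 fold change of 0.35 (SE 0.09) with an edgeR adjusted p of 0.596. Free RNA had the same order for Cebpb, with 202 and 281 CPM in barcodes of at most 100 UMIs in cKO and 189 and 150 CPM in Control, and its part in the difference was not tested. Bhlhe40 had 12.8 and 7.32 CPM in cKO, against 14.9 and 18.3 CPM in Control (-0.71, SE 0.23, edgeR adjusted p 0.685). Hif1a had 211 and 146 CPM in cKO, against 220 and 258 CPM in Control (-0.42, SE 0.16, edgeR adjusted p 0.685). In these 3 genes both cKO libraries lay on one side of both Control libraries. Without cKO replicate 1 the values were 0.46, -1.17 and -0.71, in a fit that assumes that the lone cKO library varies as Control does. That library, cKO replicate 2, has the different run code, so genotype and run code cannot be told apart in that fit.

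In the 3 libraries with a common run code (cKO replicate 2 left out) the values were 0.24 for Cebpb, -0.37 for Bhlhe40 and -0.18 for Hif1a. Without Control replicate 1, the library whose Xist level went against its label, they were 0.36, -0.86 and -0.54. All 6 values kept their direction. With the 2 other single libraries left out in turn the direction was kept as well.

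The cKO libraries also held smaller shares of MGnD-positive cells, given above. With all cells thinned to 2000 UMIs the Bhlhe40 difference was -0.19, the Hif1a difference -0.27 and the Cebpb difference 0.35 on the log2 scale. At that depth and without MGnD-positive cells they were 0.02, -0.22 and 0.33. Among MGnD-positive cells themselves Hif1a and Bhlhe40 of cKO replicate 1 were above, and Hif1a of cKO replicate 2 below, both Control libraries. Bhlhe40 of cKO replicate 2 lay between them. Heat-shock transcripts were higher in both cKO libraries. At 2000 UMIs a cell and without cells that held them the values were 0.32 for Cebpb, 0.08 for Bhlhe40 and -0.13 for Hif1a. The 4 genes with a miR-155 seed match thus had differences of 0.01 (Mef2a), -0.07 (Spi1), 0.35 (Cebpb) and -0.42 (Hif1a), none past the threshold.

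**Figure D3:**
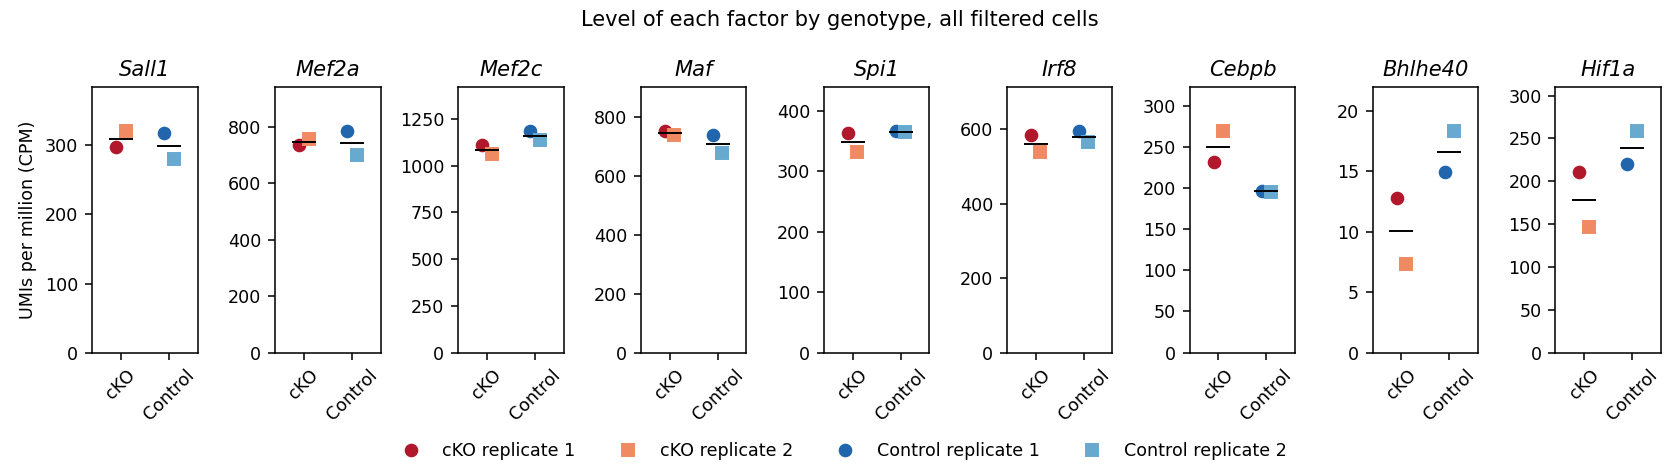
TMM-scaled CPM (y axis, from 0) of the 9 factors in each library over all filtered cells, cKO left of Control. Points are libraries and bars the mean of 2. Cebpb lies at 231 and 269 in cKO above 197 and 195 in Control, and Bhlhe40 and Hif1a lie below.

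**Figure D4:**
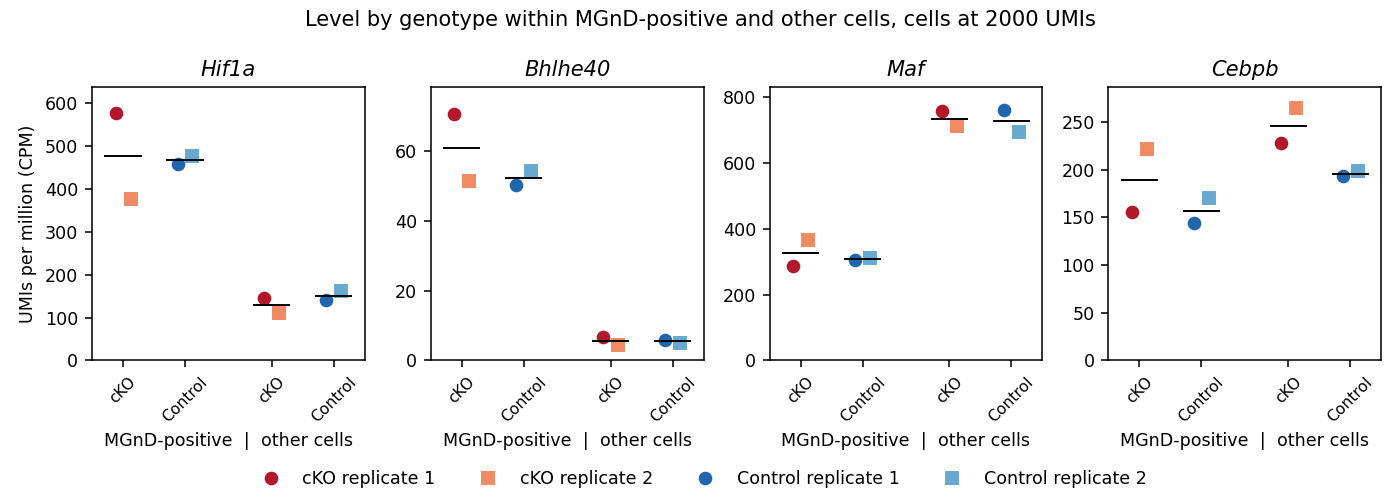
TMM-scaled CPM (y axis, from 0) of Hif1a, Bhlhe40, Maf and Cebpb by genotype within MGnD-positive and within other cells, cKO left of Control. Points are libraries and bars the mean of 2. The gap between the means of the cell groups exceeds the gap between the genotype means for Hif1a, Bhlhe40 and Maf.

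Whether the MGnD difference itself depended on genotype was tested by an interaction term. Of 10788 genes 5 passed, 0.0463%, and none was a member. The 5, named after their values were seen, were Ttr, H2-Ab1, Cd74, H2-Aa and Apoe. DESeq2 called 0. The members' interaction terms ran from -0.29 (SE 0.19) for Sall1 to 0.25 (SE 0.15) for Hif1a on the log2 scale, each with an edgeR adjusted p of 1.

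The name of identity factors was checked against monocytes, blood-derived cells that carry few microglial markers. Cells with at least 3 monocyte markers and at most 1 microglia marker numbered 16 in all (9 and 1 in cKO, 5 and 1 in Control), with 32000 thinned UMIs between them. Sall1 had 0 UMIs in them, which allows up to 93.8 CPM (3 counts of the pooled total), against 314 CPM in 12551 microglia-marker cells, so it was at least 3.35-fold lower. Maf had 2 UMIs or 62.5 CPM (95% Poisson interval 7.57 to 226), against 774 CPM in microglia-marker cells. Mef2c had 188 CPM (68.8 to 408), against 1143 CPM, and Mef2a 156 CPM (50.7 to 365), against 762 CPM. The intervals cover counting error only.

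Of 9667 genes tested on these sums 6.64% passed, 0.838% higher and 5.80% lower. Sall1, Mef2a, Mef2c, Maf, Irf8 and Hif1a were called lower in monocyte-marker cells. They passed the filter on low counts only through the microglia-marker sums, where they are high. The monocyte-marker sums of cKO replicate 2 and Control replicate 2 were 1 cell each, where a count of 0 says little. These calls are therefore no support for the name. Under the same limit Sall1, Mef2a, Mef2c and Maf kept the call with each library left out in turn and with library totals. Hif1a lost it with each library left out in turn and with library totals, and Irf8 without Control replicate 1 (edgeR adjusted p 0.146) and with library totals (0.099). Cebpb went the other way, with 34 UMIs or 1062 CPM (736 to 1485) in monocyte-marker cells, against 232 CPM. It was not called with TMM factors (0.99, edgeR adjusted p 0.2) and was called with library totals (2.24, 1.2e-08). Spi1 had 438 CPM (239 to 734) in monocyte-marker cells, against 368 CPM, and its sign turned with the scaling (-1.01 with TMM factors, 0.22 with library totals), neither called. The scaling moved the median of all genes to -1.76 with library totals, against -2.90 with TMM, and the split of calls to 298 higher and 184 lower, against 81 and 561.

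Some counts could include reads of overlapping genes, since the sources used here do not state whether counting used strand. Mef2a (chr7:67231163-67372858), Maf (chr8:115682942-115707794), Irf8 (chr8:120736358-120756694), Cebpb (chr2:167688915-167690418), Bhlhe40 (chr6:108660629-108666925) and Hif1a (chr12:73901375-73947530) each overlap at least 1 other annotated gene. Sall1 (chr8:89027235-89044162), Mef2c (chr13:83504034-83667080) and Spi1 (chr2:91082390-91115756) overlap none. These positions are exon and intron spans in GENCODE M21 (GRCm38). The overlapping genes lie only on the opposite strand for Maf, Cebpb and Bhlhe40, and only on the same strand for Irf8. For Mef2a and Hif1a they lie on both strands.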

How the data were processed

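Per the labels, the authors made the raw UMI counts per gene and barcode with Cell Ranger 4.0.0 on mm10. The deposited matrices are unfiltered, 1 per library, and the deposited barcode and feature names (other) carry no measurement. A barcode was kept as a cell if it had 1000 UMIs or more, 500 genes or more and no more than 10% of its UMIs from mitochondrial genes. For states, cells of at least 2000 UMIs were thinned to 2000 without replacement, which left out 243 and 186 cells in cKO and 352 and 276 in Control. UMIs were summed per library and cell group, because cells are not replicates. Sums were fitted with edgeR 4.0.16 in R 4.3.3 (TMM, filterByExpr, quasi-likelihood F test, two-sided, Benjamini-Hochberg at 0.05 over all tested genes). The library was a block in state comparisons, and the genes that define a state were left out of its table. With 2 libraries a group the genotype fit has 2 residual degrees of freedom. DESeq2 1.42.0 was an alternative. The fits were tested on simulated counts. Doublets stayed in, because Scrublet (scanpy 1.11.5) called 1, 0, 0 and 0; the highest scores, at 0.8% per 1000 cells, were removed as an alternative. Median depth was 6183 and 7236 UMIs per cell in cKO, and 6158 and 6426 in Control. Seed matches were read from GENCODE M21. Named genes were the 9 members, up to 3 per list, comparison and direction by smallest p among those past the threshold, the 3 most alike genes per member, and 4 checks (Mir155hg, Xist, Hspa1a, Hspa1b). Some genes that this rule names are not reported here. Ero1a is listed as Ero1l in these files, and Aldoa, a symbol of 2 identifiers, was left out. The members and lists were chosen with earlier results of these data known. Cells positive for border macrophage markers numbered 2, so that comparison was not run.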

Additional observations from a re-analysis of the deposited data

How the results depend on the processing

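The MGnD calls of Bhlhe40, Hif1a, Maf, Sall1 and Mef2a held their direction and side of the threshold under every alternative run, and depth limits Bhlhe40 most, at 12 to 47 UMIs a library in MGnD-positive and 25 to 48 in other cells. With 2 libraries a group the genotype count depended on every choice but median-ratio factors and doublet removal (0 genes each): 350 without the filter on low counts, 24 with DESeq2, 170 with the replicate block, 8 at 2000 UMIs a cell, and at that depth 10 without MGnD-positive cells and 7 without heat-shock cells, 3 without cells of other-class markers, 17 with library totals and 26 to 616 without single libraries, the most without cKO replicate 1. Cebpb, Bhlhe40 and Hif1a passed without the filter (edgeR adjusted p 0.0317, 1.82e-05 and 0.00221), and Bhlhe40 and Hif1a with the replicate block (0.00307 and 0.0472). The replicate numbers share only a number: the deviations of same-numbered libraries correlated at 0.090 over genes. Counts elsewhere moved with DESeq2 to 2015 (MGnD), 309 (interferon), 710 (cycling), 832 (MGnD-only) and 0 (interaction), and with all UMIs summed to 5613 (MGnD), 972 (interferon) and 3356 (cycling). Other moves were to 1433 at 1000 UMIs and 1584 at 4 of 5 genes for MGnD and to 278 with no replicate block for interferon. Without single libraries counts were 765 to 1108 for cycling, 1 to 10 for the interaction and 150 to 382 for monocyte-marker cells. Signs turned, all among uncalled values, for these log2 differences. By genotype they were Sall1 without single libraries (-0.040 to 0.139), at 2000 UMIs (-0.0076), and at that depth without MGnD-positive (-0.031) and heat-shock cells (-0.080); Mef2a without single libraries (-0.069 to 0.090); Irf8 without single libraries (-0.107 to 0.012) and with totals (0.034); Spi1 with totals (0.010); Bhlhe40 at 2000 UMIs without MGnD-positive (0.019) and heat-shock cells (0.083). By state they were Mef2c in MGnD with all UMIs (0.028), Hif1a in interferon without single libraries (-0.011 to 0.116) and at 4 of 12 genes (-0.10), Irf8 in cycling with all UMIs (0.064) and totals (0.047), and in MGnD-only cells Mef2c without single libraries (-0.030 to 0.131) and with totals (-0.16), and without single libraries Spi1 (-0.187 to 0.0074) and Irf8 (-0.178 to 0.027). In monocyte-marker cells Spi1 turned with totals (0.22). The cause of these moves was not tested.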
